A study of Mus musculus with 8 samples.

Results

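Bhlhe40, Bhlhe41 and Ciart are 3 genes of the circadian clock whose proteins repress the CLOCK-BMAL1 activator, and what follows describes the chromatin loops that an anti-HA pulldown of tagged REV-ERBα gave at each of them in mouse liver. A loop counted for a gene when either of its anchors lay in the gene body or within 5 kb of it, on the mm10 build. By that rule 72 of the 277517 loops listed in 6 libraries belonged to these 3 genes, out of 21887 protein-coding genes in all. Of the 72 loops, 59 were in the knock-in library of zeitgeber time (ZT) 10, 5 in the knock-in library of ZT22, 1 in the libraries of the full-length construct and 7 in those of the deletion construct.

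Liver nuclei were assayed by in-situ ChIA-PET, in which crosslinked chromatin is cut, religated in the nucleus and immunoprecipitated, so that a paired-end tag (PET) joins genomic places that lay close together. The knock-in mice, genotype REV-ERBa3HA/3HA with no virus, carry the 3HA tag on their own REV-ERBα and gave 1 anti-HA library at ZT22 and 1 at ZT10. The other 4 anti-HA libraries, all of ZT10, came from mice of genotype REV-ERBaf/fREV-ERBbf/f given AAV8-TBG-Cre. With it they received either AAV8-TBG-3HA-REV-ERBa-WT (called WT, replicates 1 and 2) or AAV8-TBG-3HA-REV-ERBa-delhIDR (called dhIDR, replicates 1 and 2), the latter labelled as lacking the hIDR. TBG is a promoter active in hepatocytes, so Cre and the tagged protein in these mice are driven by virus in hepatocytes, while the knock-in tag follows the gene's own expression in whichever liver cells have it. A further 2 samples, pulled down for CTCF, were not analysed here. Separate mice are not stated for the replicates, so the p-values may reflect technical spread alone.

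In the mammalian clock CLOCK and BMAL1 bind E-boxes and switch on genes whose products feed back to silence them. BHLHE40 (DEC1) and BHLHE41 (DEC2) are basic helix-loop-helix repressors that bind the same E-box letters, and CIART (CHRONO) is a repressor that acts on CLOCK-BMAL1 without a DNA-binding domain of that kind. REV-ERBα, encoded by Nr1d1, forms a further arm of the clock: it is a nuclear receptor that represses genes through the RORE and recruits corepressors, and in liver its protein is abundant in the day and scarce at night.

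No promoter sequence of Bhlhe40 was available, so it is not shown and was not searched for motifs. Anchors at ZT10 did cover its low-coordinate end. The promoter sequences of Ciart and Bhlhe41 are shown, and loop anchors lay on both starts at ZT10. They are RefSeq sequences of GRCm38.p6 on the minus strand, written 5′ to 3′ without the bases inside the annotated gene, and capitals mark the E-box CACGTG. The Ciart stretch is chr3:95882258-95882478, and the Bhlhe41 stretch is chr6:145865421-145865670.
Ciart: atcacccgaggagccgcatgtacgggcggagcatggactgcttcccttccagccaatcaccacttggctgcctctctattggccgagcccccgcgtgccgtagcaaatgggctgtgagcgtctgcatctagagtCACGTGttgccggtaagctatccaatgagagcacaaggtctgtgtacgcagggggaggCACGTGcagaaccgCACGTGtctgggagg
Bhlhe41: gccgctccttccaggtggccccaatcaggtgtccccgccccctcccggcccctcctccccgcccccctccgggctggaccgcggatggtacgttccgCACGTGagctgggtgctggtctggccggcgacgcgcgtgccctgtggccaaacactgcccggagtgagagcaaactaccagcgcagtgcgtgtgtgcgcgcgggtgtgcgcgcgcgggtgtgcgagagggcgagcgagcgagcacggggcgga
The Ciart sequence holds 3 E-boxes, beginning 116, 58 and 44 bases before the annotated start, and the Bhlhe41 sequence holds 1, beginning 153 bases before it. Among 32851 promoters, 6.02% had at least 1 CACGTG in the 250 bases before the start, and 20 promoters (0.0609%) had 3 or more. Neither gene had AGGTCA, the core letters bound by REV-ERB and ROR receptors (14.0% of promoters), the RORE, which adds an A/T-rich flank to those letters or a close form of them (0.332%), or the D-box TTANGTAA (2.06%). Each motif was searched on both strands. These counts describe the letters of that window only. GC content was 60.6% in the printed Ciart stretch and 73.6% in that of Bhlhe41.

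The knock-in ZT10 library stood apart from the other 5. Its loops had a median span of 40.1 kb against 524 to 1071 kb in the others, 8.33% of them exceeded 2 Mb against 38.8% to 44.2%, and its median anchor measured 1067 bp against 601 to 626 bp. Listed PETs numbered 320427 there and 104161 to 204018 in the others, with WT replicate 1 the lowest. Every listed loop had at least 3 PETs, so these sums are not the sequencing depth, and a loop not listed in a library has 0 to 2 PETs there. Few loops recurred between replicates: 39 of the 31033 loops of WT replicate 1 had both anchors overlapping a loop of WT replicate 2 (0.126%), and 13 of the 47939 of dhIDR replicate 1 matched dhIDR replicate 2 (0.0271%). Loops at 8 hepatocyte marker genes summed to 1798 PETs in the knock-in ZT10 library and 21 to 51 in the others, with Serpina1a at 0 at ZT10. Those at 6 Kupffer cell markers summed to 3 and to 21 to 70, with 5 of the 6 (Clec4f, Marco, Adgre1, Cd68 and Csf1r) at 0 at ZT10. The 4 stellate markers summed to 17 against 15 to 76, the 4 endothelial ones to 113 against 25 to 74, the 4 cholangiocyte ones to 32 against 0 to 29 and the 4 lymphoid ones to 29 against 0 to 22. The part of cell makeup, span and anchor width in the values that follow was not tested. In whole liver, fewer cells holding a contact and fewer contacts per cell cannot be told apart. Nr1d1, the gene that is tagged in the knock-in and floxed in the virus-treated mice, had 3 PETs at ZT22 and 265 at ZT10. It had 5 and 3 with the full-length construct and 5 and 0 with the deletion construct. Its loops do not measure the deletion or the construct and check no label.

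The 3 genes differed widely at ZT10 and were thinly covered in every other library. Bhlhe40 was listed with 304 PETs in the knock-in ZT10 library, Ciart with 90 and Bhlhe41 with 20. Per kb of the gene and its flanks this was 18.7 PETs for Bhlhe40, 6.54 for Ciart and 1.16 for Bhlhe41, against a median of 0.224 over the genes with any PET there. On that scale Bhlhe40 took place 20 among the 21887 genes, Ciart place 210 and Bhlhe41 place 1798. By summed PETs the places were 134, 1011 and 3305. A value per kb can favour short genes, and these 3 span 3758 to 7178 bp.

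Bhlhe40 had 10 PETs at ZT22 (exact Poisson 95% interval 4.80 to 18.4), 304 at ZT10 (271 to 340), 0 in both WT libraries (0 to 3.69 each), and 6 (2.20 to 13.1) and 10 (4.80 to 18.4) in dhIDR replicates 1 and 2. The knock-in ZT10 library was the highest and the WT libraries the lowest. Ciart had 3 PETs at ZT22 (0.619 to 8.77), 90 at ZT10 (72.4 to 111), 0 in both WT libraries, and 10 (4.80 to 18.4) and 4 (1.09 to 10.2) in dhIDR. As for Bhlhe40, the knock-in ZT10 library was the highest and the WT libraries the lowest. Bhlhe41 had 3 PETs at ZT22 (0.619 to 8.77), 20 at ZT10 (12.2 to 30.9), 5 in WT replicate 2 (1.62 to 11.7) and 0 in WT replicate 1 and in both dhIDR libraries. Every one of these values outside the knock-in ZT10 library rested on at most 3 loops. The WT and dhIDR libraries are also of ZT10, but PETs or loops given for ZT10 without a construct are those of the knock-in library. Intervals cover counting error only, since PETs can include PCR copies.

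**Figure D1:**
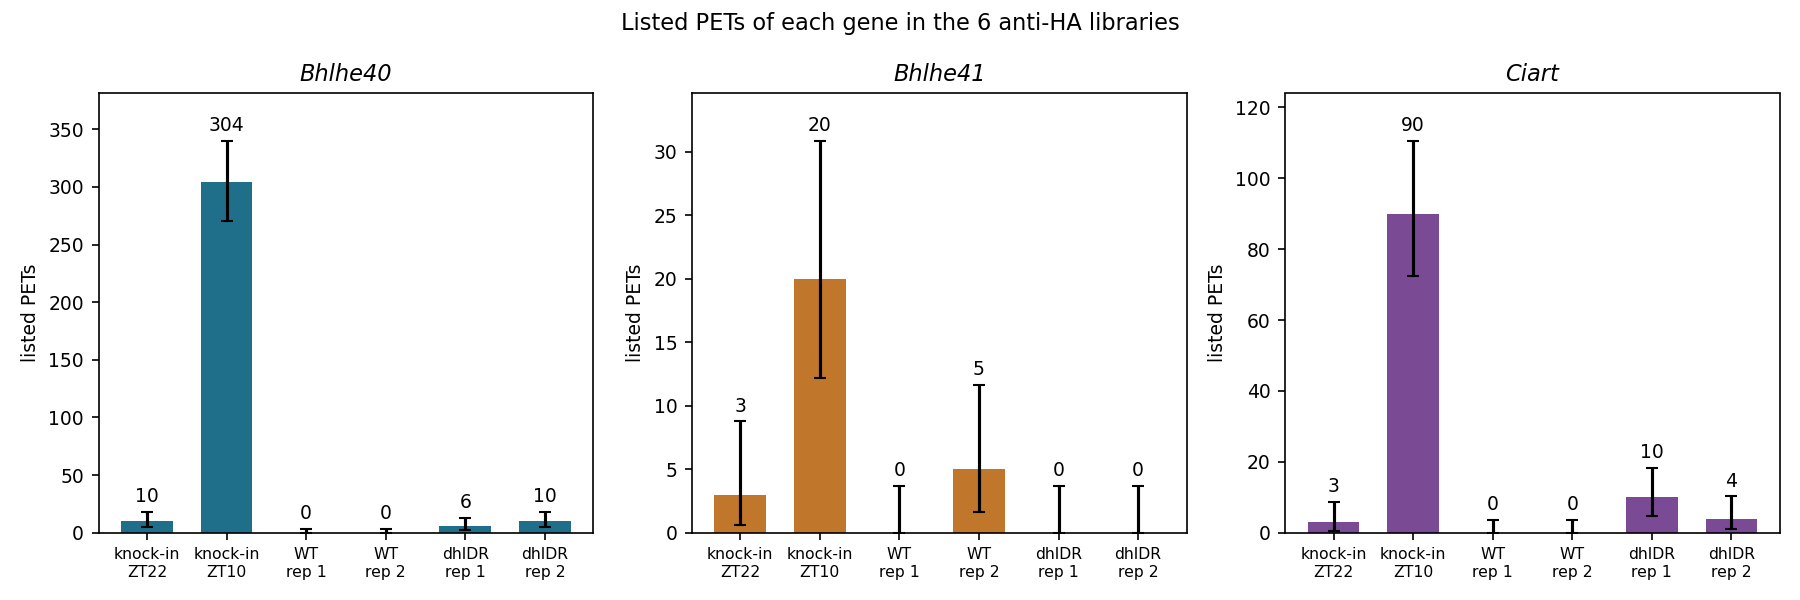
Listed PETs (linear axis, own scale in each panel) of Bhlhe40, Bhlhe41 and Ciart in each of the 6 anti-HA libraries. Bars are single libraries and lines are exact Poisson 95% intervals, and in all 3 panels the knock-in ZT10 bar is the highest, at 304, 20 and 90 PETs.

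The first comparison was of time of day in the knock-in liver, where REV-ERBα was collected near its low (ZT22) and its high (ZT10). Bhlhe40 took 0.754 of every 10000 listed PETs at ZT22 and 9.49 at ZT10, a 12.6-fold higher share at ZT10 (log2 ratio 3.65, exact Clopper-Pearson 95% interval 2.76 to 4.73). Ciart took 0.226 and 2.81, a 12.4-fold higher share (log2 3.64, interval 2.04 to 5.94). Bhlhe41 took 0.226 and 0.624, a log2 ratio of 1.47 whose interval (-0.29 to 3.86) included no difference. There was 1 library at each time, so these ratios have no replicate check and no test.

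Such ratios were common in these libraries. Among the 3721 genes that reached 30 PETs summed over both times, 1560 (41.9%) had a share at least 4-fold higher at ZT10 and 606 (16.3%) at least 4-fold lower, and the median gene's log2 ratio was 1.46. Both members with enough PETs, Bhlhe40 and Ciart, were past that fold, and Bhlhe41, with 23 PETs in all, could not be placed. The 2 genes reached the minimum only through their ZT10 PETs, so their place past the fold is partly set by that filter. With the median gene as the scale, 775 genes (20.8%) were at least 4-fold higher and 974 lower, so that 44.3% of the genes past the fold were higher at ZT10 against 72.0% on the main scale. On that scale the log2 ratios were 2.20 for Bhlhe40, 2.18 for Ciart and 0.0076 for Bhlhe41. The ratio of Bhlhe40 exceeded that of 80.5% of the 3721 genes and the ratio of Ciart that of 80.4%. That background depends on window and minimum. Windows of 5 kb around each gene end left the PETs of both genes unchanged. With them 1577 of 2085 genes (75.6%) were at least 4-fold higher at ZT10, and the median log2 ratio was 3.22. With a minimum of 10 PETs, 2216 of 8618 genes were at least 4-fold higher and 2569 lower, and the median was -0.24. The only ZT22 loop of Ciart had its anchor beyond the gene, inside the neighbouring gene BC028528. With the gene body alone Ciart had 77 PETs at ZT10 and 0 listed at ZT22. With loops limited to those having 2 anchors of 700 bp or more, Bhlhe40 had 278 PETs at ZT10 and 0 listed at ZT22. The median anchor was 626 bp at ZT22 and 1067 bp at ZT10, so that limit removes most ZT22 loops whatever the gene. Under it 1578 of 2357 genes (66.9%) were at least 4-fold higher at ZT10 and 22 at least 4-fold lower.

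Bhlhe40 (gene 20893) spans chr6:108660629-108666925 and overlaps the long noncoding gene 0610040F04Rik. Its neighbours are Itpr1, which encodes an inositol trisphosphate receptor that releases calcium from the endoplasmic reticulum, 109.5 kb on the low-coordinate side, and Arl8b, a small GTPase of lysosomes, 116.1 kb on the other. At ZT10 the gene had 42 loops with a median span of 124.55 kb (8.0 to 3608.2 kb), wider than the library's median of 40.1 kb, and a median anchor of 1230 bp. Of the 304 PETs, 235 joined partners on the low-coordinate side, 48 joined partners on the other side and 21 joined places within the gene's own window. The loops were thus weighted towards Itpr1.

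Itpr1 was the partner of 20 loops and 188 PETs, 61.8% of the Bhlhe40 total, and all of those partner anchors lay inside Itpr1. The strongest loop joined chr6:108656867-108664728, over the low-coordinate end of Bhlhe40, to chr6:108455030-108459854 inside Itpr1, 203.4 kb apart, with 55 PETs (18.1% of the gene's total). The next joined chr6:108658656-108663118 to chr6:108532915-108535937 with 37 PETs, 126.5 kb apart. That partner covers the annotated start of Gm44040, a noncoding gene within Itpr1, at position 108535755. The third, with 18 PETs, joined both flanks of Bhlhe40 to each other, chr6:108658636-108660974 to chr6:108667052-108669311, 8.4 kb apart.

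Merged where they lay within 1 kb of each other, the partner anchors of Bhlhe40 at ZT10 formed 21 sites. Of these, 13 sites with 191 PETs (62.8%) lay in or within 5 kb of another protein-coding gene, and 8 sites with 92 PETs (30.3%) lay near none. The leading sites inside Itpr1 were 203.9 kb below the gene's low-coordinate end (68 PETs), 126.1 kb below (46 PETs) and 229.3 kb below (20 PETs). The leading sites near no protein-coding gene were chr6:108569973-108571953, 89.7 kb below, with 22 PETs, chr6:108708710-108710501, 49.0 kb above, with 21, chr6:108679474-108682953, 20.6 kb above, with 20, and chr6:108637556-108639478, 22.1 kb below within 0610040F04Rik, with 13. Arl8b and Edem1, which acts in endoplasmic reticulum protein degradation, shared 1 loop of 3 PETs. A single loop of 4 PETs reached 3608.2 kb to chr6:112268051-112268590, near no protein-coding gene, and accounted for the wide upper end of the span range.

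Contacts of Bhlhe40 came mostly from its low-coordinate end. Loops from an anchor stretch at that end, chr6:108655842-108664728, numbered 32 with 246 PETs (80.9%), and 11 of them with 156 PETs covered the annotated end itself. Loops from beyond the other end, chr6:108667548-108672217, numbered 8 with 37 PETs (12.2%), and 2 loops with 21 PETs (6.91%) joined both flanks. The 6 partner sites of the high-coordinate flank were all among the 21 sites reached from the low-coordinate end, where they had 153 PETs against 37 from the high flank. The site 203.9 kb below had 58 PETs from the low-coordinate end and 10 from the other flank, whereas the site 49.0 kb above had 10 and 11.

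After merging of all overlapping ZT10 anchors into 51940, the anchor at the low-coordinate end of Bhlhe40 carried 34 loop ends and 267 PETs, place 38 by loop ends. Only 0.0847% of anchors had as many. Itpr1 anchors in the same locus carried 26 (chr6:108452790-108460286), 20 (chr6:108532915-108536313) and 19 loop ends (chr6:108427791-108434588), places 108, 250 and 306. These are merged widths of several kb, and wider anchors can collect more loops. In the 447.9 kb from the lowest to the highest partner within 2 Mb, chr6:108380616-108828525, the ZT10 library listed 116 loops with 692 PETs. Of these PETs 43.4% belonged to Bhlhe40, and 29 loops with 186 PETs joined partner sites of Bhlhe40 to each other without touching the gene. The same 447.9 kb held 35 PETs in the ZT22 library, 15 and 22 in the WT libraries and 25 and 20 in the dhIDR libraries. Itpr1 itself had 823 PETs at ZT10, 2.36 per kb of its long window, of which 188 were shared with Bhlhe40. Its ZT22 library had 79, its WT libraries 50 and 44 and its dhIDR libraries 73 and 41. Arl8b had 68 PETs at ZT10 against 0 to 13 in the other libraries.

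**Figure D2:**
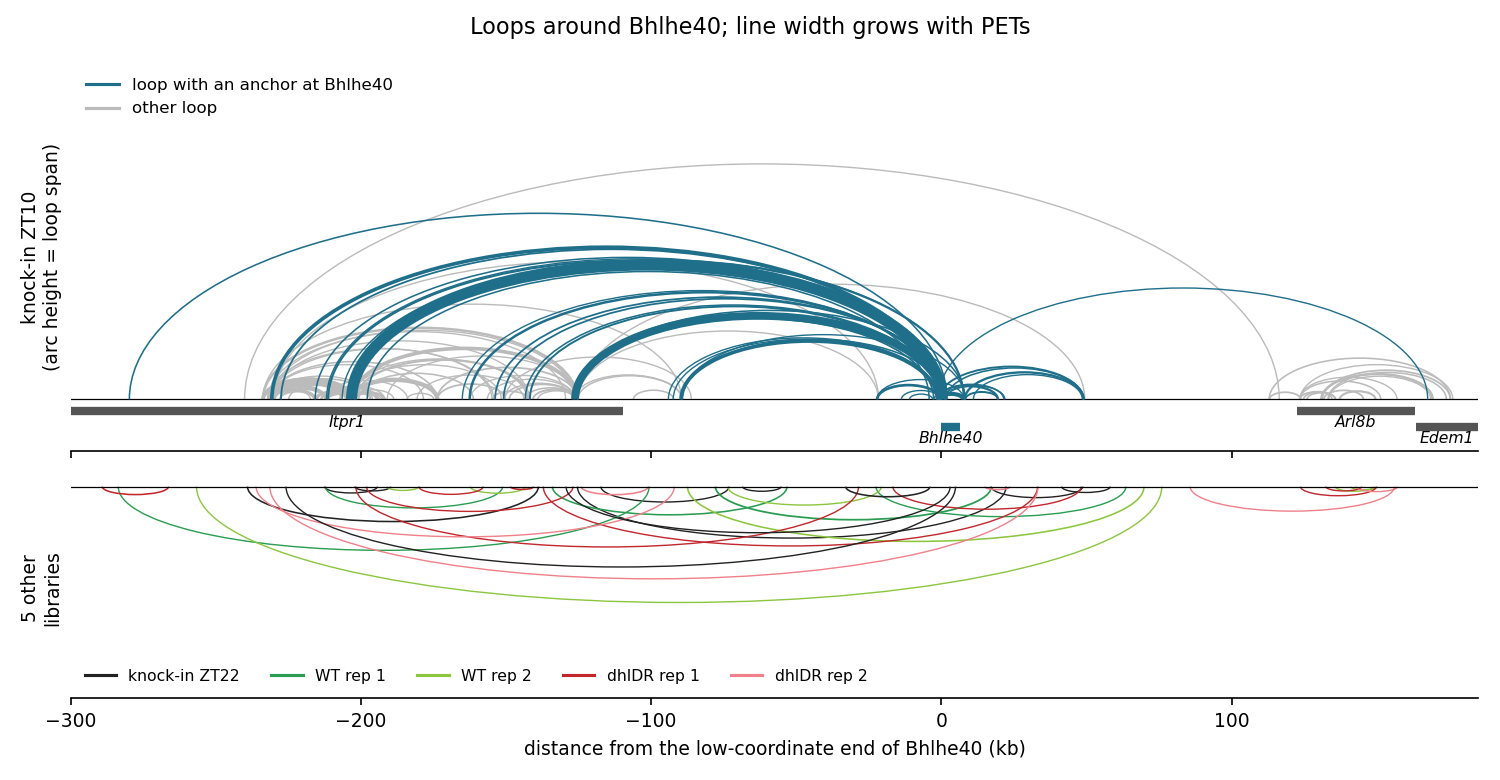
Loops within the stretch around Bhlhe40, drawn as arcs between anchor midpoints against distance from the low-coordinate end of the gene in kb, with arc height set by span and line width by PETs. The upper panel shows the knock-in ZT10 library, where the Bhlhe40 loops gather on 1 end of the gene and run mostly into Itpr1, and the lower panel shows the other 5 libraries, whose loops are scattered and of 3 or a few PETs each.

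None of the Bhlhe40 loops of the other libraries overlapped a ZT10 loop at both anchors. The ZT22 loops had 4, 3 and 3 PETs and spans of 29.0, 230.6 and 132.3 kb. Both of the latter ended inside Itpr1, 523 and 1236 bp from a ZT10 partner site. The 132.3 kb loop started inside the Bhlhe40 anchor of the strongest ZT10 loop, and the 230.6 kb loop started between the anchor stretches of ZT10. In dhIDR replicate 1 the single loop, of 6 PETs, reached 37783.2 kb to Eif2ak3, the PERK kinase of endoplasmic reticulum stress. In dhIDR replicate 2 a loop of 4 PETs reached 17156.4 kb to Xpc, a DNA damage recognition gene, and loops of 3 PETs each reached 454.7 and 329.1 kb to Itpr1, 170 and 49.2 kb from the nearest ZT10 site.

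Ciart (gene 229599) spans chr3:95878500-95882257 in a gene-dense stretch and overlaps the noncoding gene C920021L13Rik. Mrps21, a mitochondrial ribosomal protein gene, lies 7.0 kb on the low-coordinate side and BC028528 1.7 kb on the other, so flanking windows overlap and genes share PETs. At ZT10 Ciart had 11 loops, all short, with a median span of 17.3 kb (11.1 to 26.0 kb) and a median anchor of 1012 bp. All 11 partner anchors lay in or within 5 kb of a protein-coding gene, unlike those of Bhlhe40, where 30.3% of PETs went to sites near none.

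The partners of Ciart lay on either side of it. A site at chr3:95900055-95906792, inside Car14, which encodes a carbonic anhydrase, and within 5 kb of Aph1a, a gamma-secretase subunit gene, took 5 loops and 56 PETs (62.2%). Mrps21 took 5 loops and 31 PETs (34.4%), and Prpf3, a spliceosome factor gene, 1 loop of 3 PETs. The strongest loop, with 39 PETs (43.3%), joined chr3:95880894-95885173 to chr3:95902874-95906792 over 21.8 kb, and its anchors covered the annotated starts of both Ciart (95882228) and Car14 (95904685). Its anchor at Ciart also covered the low-coordinate end of BC028528. The next, with 18 PETs, joined chr3:95881295-95883566 to chr3:95864143-95866773 inside Mrps21 over 17.0 kb. Anchors over the Ciart start, next to the E-boxes printed above, accounted for 6 of the 11 loops and 74 of the 90 PETs.

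The Ciart locus was nearly empty outside the knock-in ZT10 library. In the 49.9 kb at chr3:95856930-95906792 that library listed 20 loops with 126 PETs, 71.4% of them Ciart's, and 6 loops with 26 PETs joined partner sites of Ciart directly. The other libraries listed 0 PETs there, except dhIDR replicate 1 with 4. Those 4 PETs formed the only member loop that recurred in a second library: chr3:95881141-95881791 to chr3:95903966-95904562, 22.8 kb, which overlapped the 39-PET loop of ZT10 at both anchors. The remaining Ciart loops were of another kind: Txnip, an inhibitor of thioredoxin, at 671.1 kb with 3 PETs at ZT22, Csf1, the macrophage growth factor gene, at 11865.4 kb with 6 PETs in dhIDR replicate 1, and a place near no protein-coding gene at 164.4 kb with 4 PETs in dhIDR replicate 2. Around Ciart, PETs at ZT10 were 60 at Mrps21, 94 at BC028528, 84 of them shared with Ciart, 98 at Car14 and 84 at Aph1a, and each of these genes had at most 10 in every other library.

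**Figure D3:**
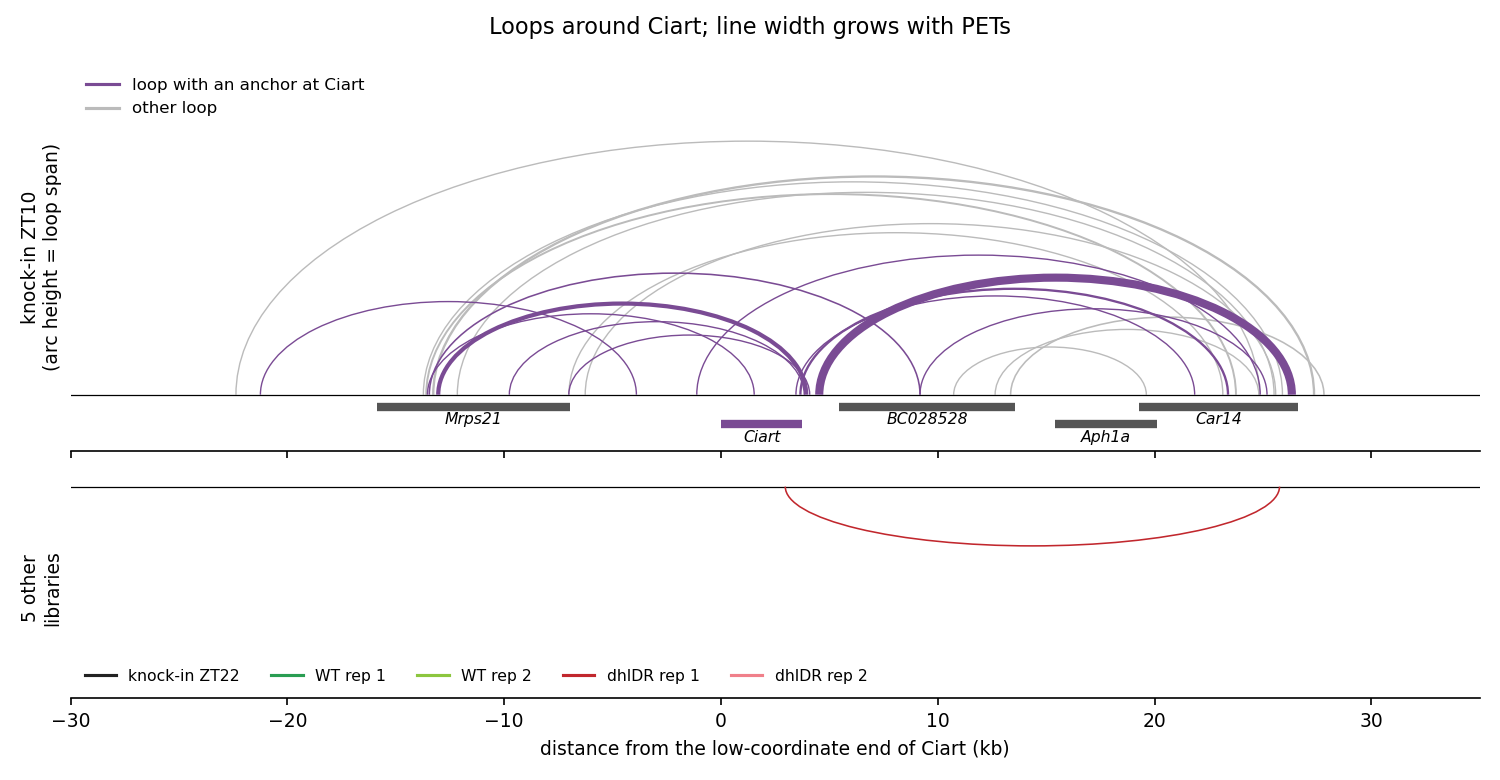
Loops within the stretch around Ciart, drawn as arcs between anchor midpoints against distance from the low-coordinate end of the gene in kb, with line width set by PETs. The ZT10 loops of Ciart run mostly to Mrps21 on 1 side and to Car14, within 5 kb of Aph1a, on the other. Below them the other 5 libraries show 1 loop, of 4 PETs, in dhIDR replicate 1.

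Bhlhe41 (gene 79362) spans chr6:145858243-145865420, with Rassf8, a Ras-association domain gene, 37.2 kb on the low-coordinate side and Sspn, which encodes sarcospan of the dystrophin complex, 66.5 kb on the other. Its 6 loops at ZT10 had 3 or 4 PETs each and a median span of 70.0 kb (27.1 to 518.3 kb). Partners near no protein-coding gene took 17 of its 20 PETs (85.0%). A site at chr6:145828528-145830809 took 2 loops with 6 PETs, a place in the noncoding gene Gm32675 at chr6:145918404-145919525 took 4 PETs and Rassf8 took 3. The annotated start, at 145865420, was covered by 1 loop of 4 PETs. Its ZT22 loop (3 PETs, 5738.6 kb) and its loop in WT replicate 2 (5 PETs, 19413.1 kb) matched none of these. In the 572.7 kb around it, chr6:145346786-145919525, the ZT10 library listed 126 PETs, as many as in the 49.9 kb around Ciart, and 15.9% of them were Bhlhe41's. At ZT10 Rassf8 had 65 PETs and Sspn 6, against 7 and 11 at ZT22.

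**Figure D4:**
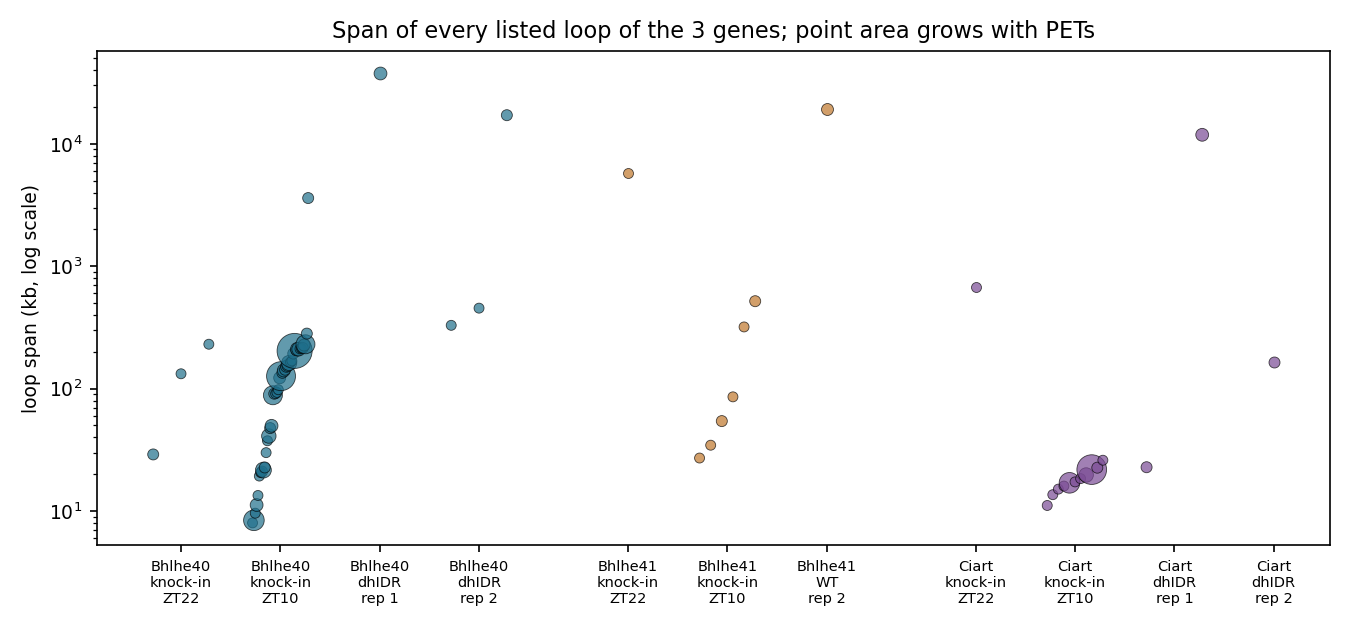
Span in kb, on a log axis, of every listed loop of the 3 genes, by gene and library, with point area set by PETs and gene-library pairs without a loop left out. The ZT10 loops of Ciart lie between 11.1 and 26.0 kb and those of Bhlhe40 mostly between 8.0 and 281.7 kb, while several loops of the other libraries exceed 5000 kb.

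The second comparison asked whether loops at these genes differed between the full-length and the deletion construct. Bhlhe40 was at 0 PETs in both WT libraries, with 6 and 10 in the dhIDR replicates. Ciart was likewise at 0 in both WT libraries, with 10 and 4 in the dhIDR replicates. Of the 4 libraries, both genes were thus listed only in the dhIDR pair. Bhlhe41 was listed only in WT replicate 2, with 5 PETs, and was below the minimum of 10 PETs for testing. Neither of the other 2 passed the test. The edgeR quasi-likelihood fit over 13006 genes gave Bhlhe40 a log2 difference, WT minus dhIDR, of -5.96 with SE 2.83 (edgeR adjusted p = 0.999, Benjamini-Hochberg over all genes tested). It gave Ciart -5.72 with SE 3.11 (edgeR adjusted p = 0.999). Both dhIDR libraries were the higher for each gene. Each SE was derived from the difference and the F statistic of the fit. With a group at 0 these differences and their SEs depend on the prior count and are no measure of a fold. With 25 kb flanks in place of 5 kb the difference for Bhlhe40 was -0.29.

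The pattern of these 2 genes was shared by many others. Libraries were compared here by listed PETs not scaled to library totals. Among the 13006 genes, both dhIDR libraries exceeded both WT libraries in 2173 (16.7%) and the reverse held in 988 (7.6%). At 0 in both WT libraries and listed in both dhIDR libraries were 440 (3.38%), against 233 (1.79%) the other way round. Bhlhe40 and Ciart, like any gene at 0 in both WT libraries, reached the minimum of 10 PETs through the dhIDR libraries alone. Entry to the 13006 genes thus depended on the groups compared. The totals were 104161 and 204018 in WT and 178426 and 160635 in dhIDR, and their part in these counts was not tested. Of all 21887 genes, 26.1% were at 0 in both WT libraries and 24.6% in both dhIDR libraries. Of the 135 genes with at least as many ZT10 PETs as Bhlhe40, 9 (6.67%) were at 0 in both WT libraries and 4 in both dhIDR libraries. Of the 1016 with at least as many as Ciart, the numbers were 96 (9.45%) and 57. The same edgeR fit called 3 genes higher in WT (0.0231%), none of them a member, and 0 lower, while 362 had an unadjusted p under 0.05. DESeq2 called 1 higher (0.00769%) and 0 lower, with 606 under 0.05.

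Set beside 24 genes of the core clock, Bhlhe40 and Ciart ranked high at ZT10 by PETs per kb, less so by summed PETs. By PETs per kb of window Bhlhe40 (18.7) was first, ahead of Nr1d1 (15.2) and Nfil3 (12.5), the bZIP repressor of the D-box, and Ciart (6.54) was in place 4, ahead of Hlf (5.05), a D-box activator. Bhlhe41 (1.16) was in place 14, next below Per1 (1.17), a period gene. Values per kb can favour short genes, while summed PETs grow with gene length. By summed PETs Bhlhe40 (304) was in place 5, between Nfil3 (321) and Nr1d1 (265). Ciart (90) was in place 10, between the cryptochrome genes Cry1 (94) and Cry2 (70). Bhlhe41 (20) was in place 17, between Dbp (24), a D-box activator, and Csnk1e (10), a clock kinase. The Poisson intervals of Bhlhe40, 271 to 340, and of Ciart, 72.4 to 111, contained the values of the neighbour above in this last order, and that of Bhlhe41, 12.2 to 30.9, contained that of Dbp.

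**Figure D5:**
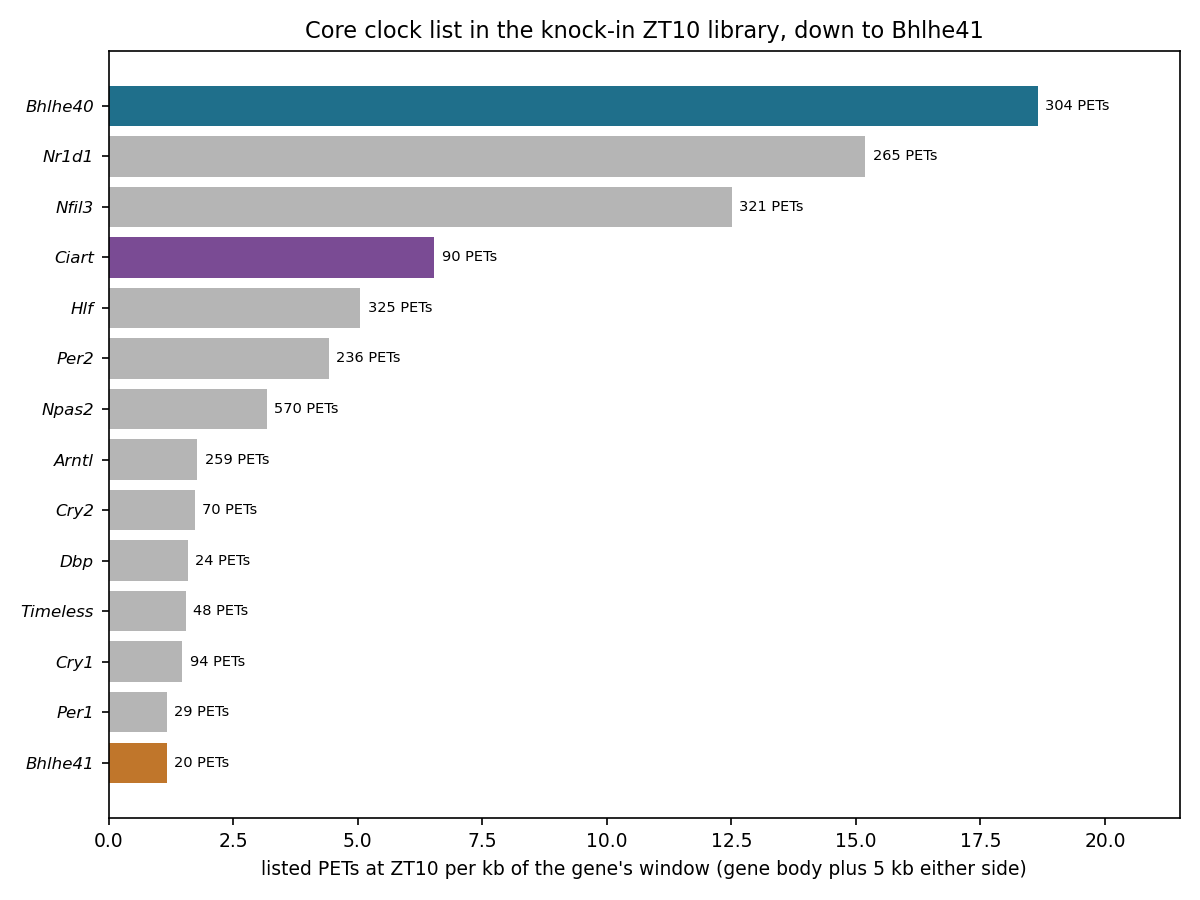
Listed PETs per kb of the gene body plus 5 kb either side, in the knock-in ZT10 library, for the 14 genes of the core clock list with most PETs per kb, with the summed PETs printed beside each bar. Bhlhe40 (18.7 per kb) is the longest bar, Ciart (6.54) is in place 4 and Bhlhe41 (1.16) in place 14.

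Of the 24 clock genes, 15 had at least 30 PETs over the knock-in libraries. Of these 15, 13 had a share at least 4-fold higher at ZT10 and 0 at least 4-fold lower, and their median log2 ratio was 2.88 (all genes past the same minimum: 41.9%, 16.3% and 1.46). These 15 reached the minimum mostly through their ZT10 PETs, so the counts are a description and do not cover all 24. Below the minimum, 3 clock genes had a share over 4-fold lower at ZT10: Clock (11 PETs at ZT22 and 3 at ZT10), Nr1d2 (10 and 3) and Rorb (13 and 7). On the scale of the median gene, 6 of the 15 were at least 4-fold higher, beside 20.8% of genes. Of the 21 clock genes that edgeR tested between the constructs, 0 passed and 2 had an unadjusted p under 0.05, Per1 and Arntl (Bmal1). By listed PETs, again not scaled to library totals, both dhIDR libraries exceeded both WT libraries in 8 of the 21 and the reverse held in 2. The median log2 difference of the 21, WT minus dhIDR, was -0.18, beside -0.07 over all genes tested. Both comparisons in the list include Bhlhe40 and Ciart.

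Some genes elsewhere had nearly the same PETs as the members across the 6 libraries. Likeness was the smallest Euclidean distance over the 6 libraries of log2 (1 + PETs per 10000 listed PETs), among genes that shared no loop with the member and lay over 1 Mb away. Bhlhe40 was closest to Csrp3 (distance 0.446, with 292 PETs at ZT10 and 0 to 10 elsewhere), Qsox1 (0.487) and Mpc2 (0.503). Ciart was closest to Apoa5 (0.242, with 106 PETs at ZT10), Ttbk1 (0.246) and Alad (0.282). Of these 6 genes, Qsox1, Apoa5 and Alad were also at 0 in both WT libraries. The WT libraries entered the distance, so low values there follow from how the genes were picked. Bhlhe41 was closest to Adh5 (0.0275, with 21 PETs at ZT10), Slc24a1 (0.0579) and Usp36 (0.0995), distances that are small because few PETs separate genes at that level.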

How the data were processed

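The 6 anti-HA libraries were used, grouped by their titles. The files hold raw counts of PETs per loop as deposited by the authors, 1 file per library, not pooled and not normalized, with mm10 as the build in the submitters' processing notes. Aligner, duplicate filter and loop caller are not given in the sources used here. Listed PETs per library ran from 104161 to 320427. Here PETs were summed over loops with an anchor in a gene body plus 5 kb, for 21887 protein-coding genes of RefSeq GRCm38.p6 (mm10 coordinates), with mitochondrial loops left out. A loop counts for every gene it touches. Positions are printed as the files give them. WT and dhIDR were compared with edgeR 4.0.16 (quasi-likelihood, TMM, genes with 10 PETs or more over 4 libraries, Benjamini-Hochberg at 0.05) and, as an alternative, DESeq2 1.42.0. Knock-in shares have exact Clopper-Pearson intervals and PETs have exact Poisson intervals, both at 95%, from scipy 1.17.1. Loops matched when both anchors overlapped by 1 bp or more. Labels name no batch. The procedures were tested on simulated data. For edgeR, recovery was required only at a depth above and a dispersion below those of the data. Power at the members' counts was thus not measured. Named genes are the members, up to 8 partner genes each by ZT10 PETs and those recurring between libraries, the nearest genes, the 3 most alike, and clock genes next to a member in rank. Other named genes were chosen after values were seen. The members, lists and tests were chosen with earlier results of these data known. Some values that the rule for named genes takes are not reported here.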

Additional observations from a re-analysis of the deposited data

How the results depend on the processing

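For Bhlhe40 and Ciart the direction held under every alternative that gave a value: the log2 ratio of ZT10 over ZT22 ran from 2.20 (median gene as the scale) to 4.32 for Bhlhe40 and from 2.18 to 4.22 for Ciart. For Bhlhe41, whose interval already included 0, it ran from 0.0076 to 1.47, so no direction was set. The value of 2.20 for Bhlhe40 lay below its main interval of 2.76 to 4.73. Every alternative used the same 1 library at each time, so these settings are not separate checks of direction. No ratio could be given where ZT22 listed no PET: for Bhlhe40 with anchors of 700 bp or more, for Ciart with the gene body alone, 2 kb flanks, loops of 4 PETs or more or such anchors, and for Bhlhe41 in 5 settings. The genes at least 4-fold higher at ZT10 numbered 775 with the median gene as the scale, and the clock genes among them 6. Those at least 4-fold lower numbered 920 with 25 kb flanks, 4 with 5 kb around each gene end alone, 75 with loops of 4 PETs or more, 22 with anchors of 700 bp or more, 255 with loops up to 2 Mb, 974 with the median gene as the scale and 2569 with a minimum of 10 PETs. Higher genes made up 99.7% of those past the fold with gene ends alone, 94.8% with loops of 4 PETs or more, 98.6% with anchors of 700 bp or more, 84.8% with loops up to 2 Mb and 46.3% with a minimum of 10 PETs. Bhlhe40 had 19 loops at ZT10 with the gene body alone and 27 with loops of 4 PETs or more. Ciart had 7 and 4 in those settings and 23 with 25 kb flanks. Bhlhe41 had 2 with loops of 4 PETs or more and 3 with anchors of 700 bp or more. In the main setting Bhlhe40 had 42 loops, Ciart 11 and Bhlhe41 6. The cause of these changes in loop number was not tested. The WT minus dhIDR difference ran from -6.27 to -0.29 for Bhlhe40 and from -6.18 to -2.79 for Ciart, with adjusted p from 0.761 to 1 over 13 and 12 settings. Neither gene was tested under filterByExpr, with anchors of 700 bp or more or with loops up to 2 Mb, nor Ciart with the gene body alone. Leaving out 1 library at a time gave -6.27 to -5.46 for Bhlhe40, -6.18 to -4.98 for Ciart, and 0 to 3 genes called, 0 without WT replicate 1. The genes called numbered 1 with the gene body alone, 2 kb flanks, loops up to 2 Mb, filterByExpr or DESeq2, and 0 with gene ends alone, loops of 4 PETs or more or anchors of 700 bp or more. The cause was not tested. With the replicate number as a block, the differences were -6.00 for Bhlhe40 and -5.56 for Ciart, and 3 genes were called. Same-numbered libraries did not deviate together (correlation 0.0034 over genes). Replicates themselves correlated at only 0.43 (WT) and 0.39 (dhIDR), so this value cannot tell whether same-numbered libraries share more than a number. Loops of fewer than 3 PETs are not listed, which limits every value of 0.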
